A study of Drosophila melanogaster with 4 samples.

Results

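The clusters of H3K9me3 that lie inside the left arm of chromosome 3 (3L) of Drosophila melanogaster, away from its ends, are described here. H3K9me3 is histone H3 trimethylated at lysine 9. A cluster is a stretch that the authors called significantly enriched, and a cluster was counted when its midpoint fell between positions 200001 and 22543557 of 3L. This window leaves out 200 kb at the telomere end and 2 Mb at the centromere end of the arm, and is 22.3 Mb long on FlyBase release 5. It held 199 of 3258 clusters in ChIP replicate 1, 213 of 3287 in ChIP replicate 2, and 374 of 4060 in a further list, the combined list, which the authors deposited for the replicates as a set. The limits of the window used position alone, but each cluster had passed the authors' call of enrichment.

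The study immunoprecipitated H3K9me3 from crosslinked nuclei of wild-type Oregon-R larvae at the third larval instar, with an antibody described as a new lot. It comprised 2 ChIP libraries, which have the cluster lists, and 2 input libraries of the same strain, genotype and stage, each the background for the ChIP library of its number. The input libraries have no cluster list here, so ChIP and input were not compared. The labels name no tissue and do not say whether the replicates came from separate animals, so a standard deviation (SD) measures the spread between these 2 libraries, which may be technical. The lists carry no read totals, so the sequencing depth is unknown.

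H3K9me3 is the histone mark of constitutive heterochromatin. In flies it is written by the methyltransferases Su(var)3-9 and Eggless, and it is bound by heterochromatin protein 1 (HP1a), which compacts chromatin and silences transposons and other repeats. Most of it lies around the centromeres and on chromosome 4. Isolated stretches of the mark in the gene-rich arms are often called islands, and that word is used here for the 3L clusters in the window.

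The islands took up little of the arm. They covered 437 kb (1.96%) of the window in replicate 1 and 519 kb (2.32%) in replicate 2, a mean of 2.14% ± 0.259 (SD, n = 2 replicates, as in all such values below). The combined list covered 904 kb (4.04%). In the 2 Mb of 3L next to the centromere, beyond the window, 72.6% ± 0.810 of bases lay in clusters. On 3LHet, a scaffold of 3L heterochromatin kept apart from the arm, the share was 88.2% ± 1.35. The replicate values of the 3 stretches did not overlap.

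Island number was close in the replicates, at 8.91 per Mb in replicate 1 and 9.53 per Mb in replicate 2, whereas the combined list had 16.7 per Mb. The 2 Mb beyond the window had 28.8 ± 1.77 clusters per Mb. The difference from heterochromatin was larger in width: the median island was 1947 bp wide in replicate 1 and 2009 bp in replicate 2, against 13638.5 bp and 14635 bp in the 2 Mb beyond the window. Islands narrower than 2000 bp made up 51.8% of the first list, 48.8% of the second and 56.1% of the combined one. In the same order, 7, 11 and 28 islands reached 5 kb.

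The deposited score, a value per cluster whose scale is not stated, differed between islands and heterochromatin as well. The median island score was 0.661 in replicate 1 and 0.641 in replicate 2, against 2.29 and 2.47 in the 2 Mb beyond the window and 2.38 and 2.57 on 3LHet. Scores of 2 or more were held by 4 of 199 islands (2.01%) in replicate 1 and 8 of 213 (3.76%) in replicate 2. In the 2 Mb beyond the window 73.3% and 76.4% of clusters reached that score. The lower quartile of scores there, 1.97 in replicate 1 and 2.05 in replicate 2, lay above the upper quartile of the islands, 0.774 and 0.849.

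Islands occurred along the whole window. Each of the 22 full 1 Mb bins, counted outward from the centromere-side limit, held at least 3 islands in each replicate. Coverage per bin ran between 0.583% and 4.19% in replicate 1, with a median of 1.80%, and between 0.614% and 5.30% in replicate 2, with a median of 2.02%. The 5 bins with the highest coverage were the same in both replicates, and 4 of the 5 with the lowest were shared. Replicate 2 had the higher coverage in 18 bins and replicate 1 in 4.

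The bin from 543558 to 1543557 had the highest mean coverage, with 4.06% in replicate 1 and 4.61% in replicate 2. Next came the bin from 10543558 to 11543557, where the replicates differed most, at 3.24% and 5.30%. The bin from 19543558 to 20543557 was covered at 4.19% and 4.23%. The lowest bins were 9543558 to 10543557, at 0.583% and 0.614%, and 1543558 to 2543557, at 0.592% and 0.733%. The bin of highest mean coverage thus adjoined a bin with nearly the lowest. Both were picked as extremes among the full bins, so a large difference between them follows in part from the choice.

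**Figure D1:**
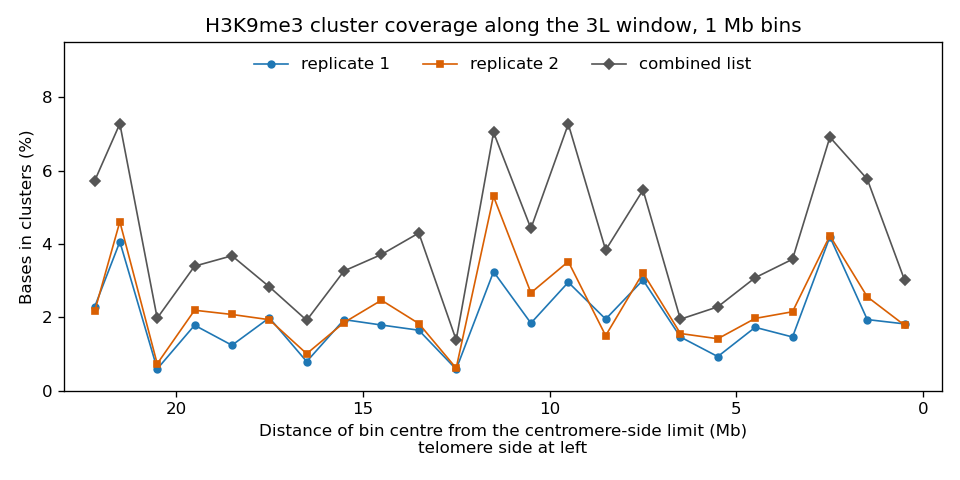
Percent of bases in clusters in 1 Mb bins of the 3L window (the leftmost bin is shorter), against the distance of the bin centre from the centromere-side limit in Mb, for each replicate and for the combined list. The replicate lines stay between 0.583% and 5.30% and do not climb steadily towards the limit at 0, and the combined list lies above both in each bin.

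In the replicates, coverage did not climb towards the centromere within the window. The 2 Mb next to the centromere-side limit held 8.48% ± 0.163 of all island bases and make up 8.95% of the window's length. Their coverage was 1.88% in replicate 1 and 2.17% in replicate 2, against 1.97% and 2.34% in the rest of the window. The combined list went the other way, with 4.39% in these 2 Mb against 4.01% in the rest, and 9.72% of its island bases there. With the limit 3 Mb from the arm end, the last 2 Mb held 14.1% of the replicates' island bases on 9.37% of the length. In 3 equal stretches of 7.45 Mb, from the telomere side inward, coverage was 1.77%, 2.17% and 1.93% in replicate 1, and 2.04%, 2.68% and 2.26% in replicate 2. The middle stretch was the highest and the telomere-side stretch the lowest in both replicates. The first Mb beyond the limit was covered at 52.3% ± 3.32.

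Between the islands and that heterochromatin lay a stretch without a cluster in either replicate, from 22096694 to 22712350 (616 kb). The last island before it was found in both lists, from 22092830 to 22096693 with a score of 1.98 in replicate 1 and from 22092915 to 22096157 with a score of 1.40 in replicate 2. The first clusters after it began at 22713179 in replicate 1 (score 0.980) and at 22712351 in replicate 2 (score 0.969). Their midpoints lay 172 kb and 171 kb outside the limit, so moving the limit by less than that would have changed neither replicate list on this side. The combined list had 5 clusters that began inside the stretch, 11.0 kb in all, with scores between 0.153 and 1.83. At the telomere side, the nearest cluster left out scored 0.636 in replicate 1 and the first island inside scored 0.647. In replicate 2 these scores were 0.620 and 0.511.

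Wider islands tended to score higher. The Spearman correlation of width and score was 0.578 across the 199 islands of replicate 1, 0.665 across the 213 of replicate 2 and 0.446 across the 374 of the combined list. These are descriptions across clusters of 1 list, which share a library and a caller. Within the 2 Mb beyond the window the same correlation was 0.267 in replicate 1 and 0.193 in replicate 2.

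**Figure D2:**
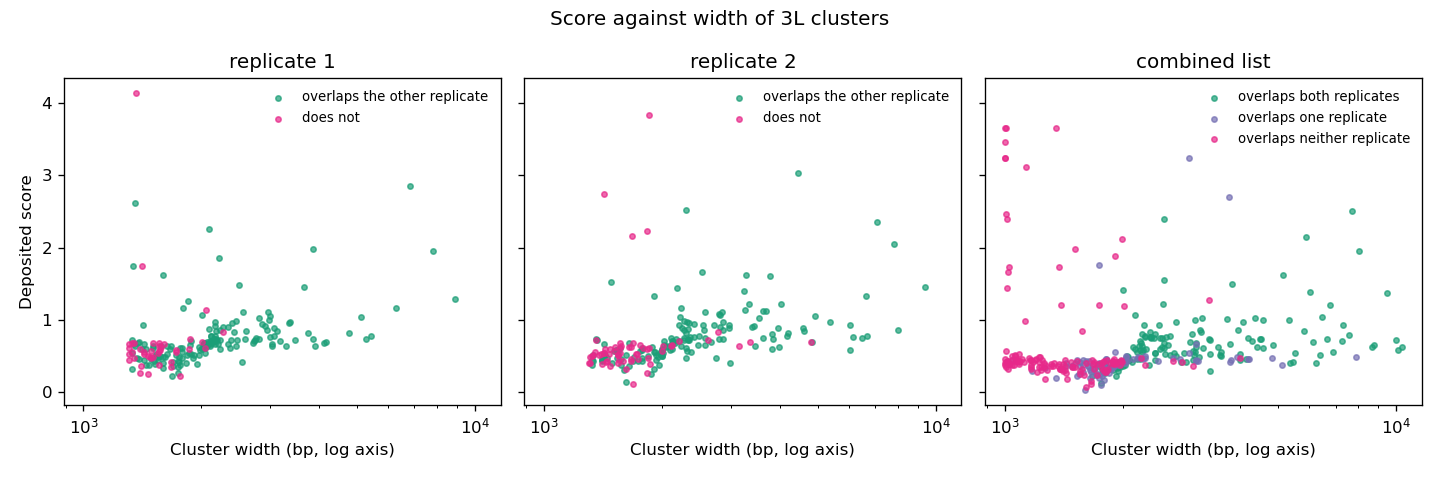
Deposited score against cluster width in bp (log axis) for the 3L islands of replicate 1, replicate 2 and the combined list, coloured by overlap with the other replicate or, for the combined list, with both, 1 or neither replicate. Most islands score below 1, those found in both replicates extend to the right, and a column of combined islands near 1001 bp with scores up to 3.66 overlaps neither replicate.

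The replicates shared most islands. Of the 199 islands of replicate 1, 158 (79.4%) overlapped an island of replicate 2 by 1 bp or more, and over the like windows of all 5 large arms, 3L included, 82.6% of replicate 1 clusters did. Of the 213 islands of replicate 2, 153 (71.8%) overlapped replicate 1, and over the 5 arms 69.6% did. Both shares were near those of the 5 arms. When at least 50% of both clusters had to be shared, 142 islands passed, which is 71.4% of replicate 1 and 66.7% of replicate 2, beside 70.5% and 62.6% over the 5 arms. The Jaccard index, the bases in both lists over the bases in either, was 0.566 on 3L, and 0.636 on 2L, 0.676 on 2R, 0.493 on 3R and 0.603 on X.

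Width went with being found again. In replicate 1, 19 of 39 islands narrower than 1500 bp overlapped replicate 2 (48.7%), 47 of 64 between 1500 and 2000 bp (73.4%), 67 of 71 between 2000 and 3000 bp (94.4%) and 25 of 25 at 3000 bp or more. In replicate 2 the counts were 16 of 35 (45.7%), 37 of 69 (53.6%), 64 of 70 (91.4%) and 36 of 39 (92.3%). Wider clusters also have more bases on which to overlap, and the part of this was not tested. By score, 46 of the 50 islands above the upper quartile of score in replicate 1 (92.0%) and 50 of 54 in replicate 2 (92.6%) were shared, and 36 of 50 (72.0%) and 32 of 53 (60.4%) below the lower quartile. Between the lower quartile and the median, 34 of 49 (69.4%) and 31 of 53 (58.5%) were shared, so over the lower-scoring part of each list the share did not increase with score.

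Joined across the replicates, the islands formed 253 loci, of which 152 (60.1%) were found in both, 41 in replicate 1 alone and 60 in replicate 2 alone. Loci of the other arms were not counted in this way, so these shares are not known to be particular to this arm. Counted by cluster, 79.4% of replicate 1 islands overlapped the other replicate, beside 82.6% over the 5 large arms. For replicate 2 the shares were 71.8% and 69.6%. The shared loci held 85.4% of island bases in replicate 1 and 79.7% in replicate 2. Their clusters had median widths of 2073.5 bp and 2274 bp, with median scores of 0.675 and 0.710. Clusters found in replicate 1 alone had a median of 1503 bp and 0.571, and those found in replicate 2 alone 1604 bp and 0.549. The combined list had a cluster at each of the 152 shared loci, at 38 of the 41 and at 57 of the 60.

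The replicates placed most edges close together. At the 146 loci with a single cluster in each replicate, the left edges differed by a median of 124 bp and the right edges by 159 bp, and the upper quartiles of these differences were 267 bp and 336.75 bp. The largest difference was 2729 bp. Replicate 2 gave the wider cluster at 92 of these loci, replicate 1 at 53, and 1 had equal widths. The median difference in width was 103 bp.

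Scores of shared islands were ranked alike. Across the 158 replicate 1 islands, each set beside the replicate 2 island with which it shared most bases, Spearman's rho was 0.836 and Pearson's r was 0.924. The same rank correlation was 0.865 on 2L (161 pairs), 0.874 on 2R (163 pairs), 0.746 on 3R (134 pairs) and 0.799 on X (466 pairs). The points share the same 2 libraries, and the values are given as a description.

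**Figure D3:**
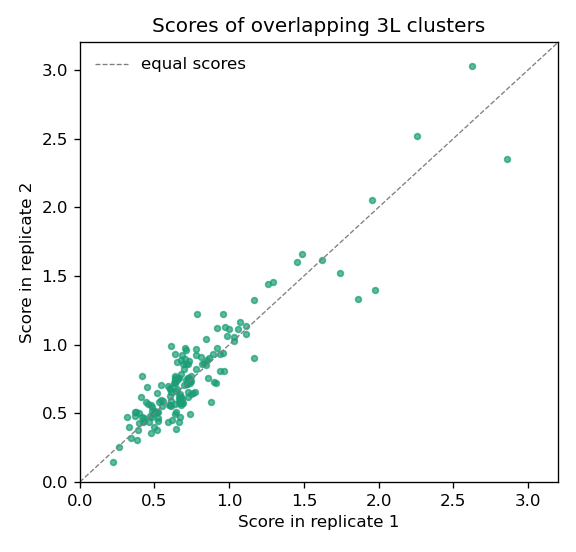
Score in replicate 2 against score in replicate 1 for the 158 replicate 1 islands that overlap replicate 2, with a dashed line at equal scores. Most points lie below 1 in both replicates and near the line, and 3 points exceed 2 in both.

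High scores were few, also among the islands found in both replicates. Most islands above the upper quartile of score were shared, 92.0% in replicate 1 and 92.6% in replicate 2. The 10 shared loci with the highest mean scores ranged between 1.53 and 2.83. The highest was at 5110761 to 5115223, with a score of 2.62 in replicate 1 and 3.03 in replicate 2 (2.83 ± 0.289). Of the 10 it differed most in width, since replicate 1 marked 1352 bp there and replicate 2 marked 4463 bp. The surroundings differed too. Replicate 1 had separate clusters at 5103856 to 5105911 (score 1.13) and 5109171 to 5110585 (score 1.75), whereas replicate 2 had a cluster at 5106623 to 5108297 (score 2.16). The combined list drew the stretch as 2 clusters, 5103899 to 5108468 (score 1.00) and 5109453 to 5115340 (score 2.15).

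The next loci were better defined. The island at 5452297 to 5459698 was 6831 bp wide with a score of 2.86 in replicate 1, and 7084 bp wide with a score of 2.35 in replicate 2. It was the only island among both the 10 widest and the 10 highest-scoring of the combined list, at 7687 bp and 2.51. The island at 21369341 to 21371647 was 2097 bp and 2307 bp wide and scored 2.26 and 2.52. The island at 20469827 to 20477772 was 7838 bp wide in each replicate, offset by 108 bp, with scores of 1.96 and 2.05. In the 2 Mb beyond the window the median scores were 2.29 and 2.47, and the lower quartiles 1.97 and 2.05. The full range there, 0.435 to 3.35 in replicate 1 and 0.504 to 3.69 in replicate 2, also takes in most islands.

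The other 6 of the 10 had mean scores between 1.53 and 1.69. They were the island next to the cluster-free stretch at the centromere side (22092830 to 22096693) and those at 19818218 to 19819713, 11607959 to 11612251, 16516298 to 16518515, 11284947 to 11287483 and 15288432 to 15292214. At 11607959 the replicates gave nearly the same score, 1.62 each, on different widths, 1593 bp and 3280 bp. At 16516298 the widths were 2218 bp and 1903 bp and the scores 1.86 and 1.33. In all 10 the combined list had a single cluster, with a score between 1.22 and 2.51.

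**Figure D4:**
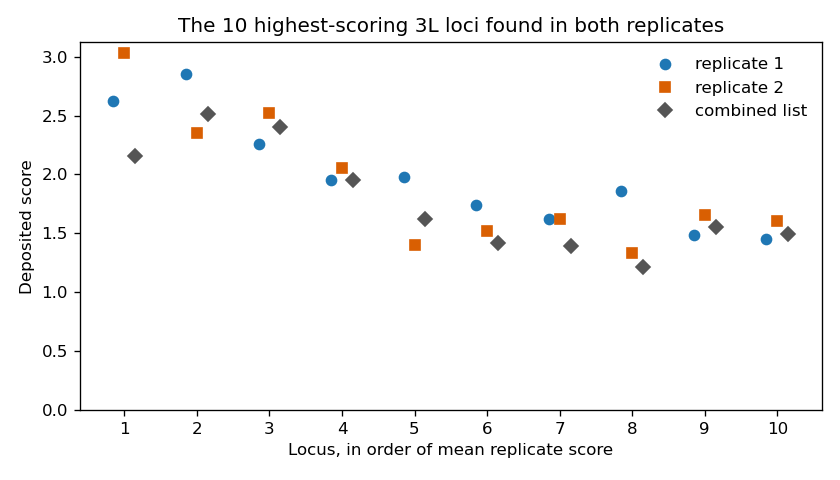
Deposited scores in replicate 1, replicate 2 and the combined list for the 10 shared 3L loci with the highest mean replicate score, in that order. The mean scores lie between 2.83 for the first and 1.53 for the tenth, and the replicates differ most at the fifth, 1.98 and 1.40.

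Scores of 2 or more outside these loci were seen in 1 replicate at a time. These loci were chosen as the shared ones with the highest mean scores, so this follows largely from the choice. The highest score of replicate 1, 4.14, belonged to a 1366 bp island at 12916286 to 12917651 with no cluster in replicate 2. The highest of replicate 2, 3.84, belonged to a 1853 bp island at 8228522 to 8230374 with none in replicate 1, beside another such island at 8230521 to 8231941 (score 2.74). Of the islands with scores of 2 or more, 3 of 4 in replicate 1 and 4 of 8 in replicate 2 overlapped the other replicate. Over all islands of these lists the shares were 79.4% and 71.8%.

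The widest islands were mostly found in both replicates. The 10 widest of the combined list measured between 7558 bp and 10353 bp, scored between 0.495 and 2.51, and 9 of them overlapped both replicates. Of all 374 combined islands, 39.8% overlapped both. The widest clusters of the other arms were not counted in this way. The widest, at 19652174 to 19662526, scored 0.624 and was covered at 65.6% by 3 clusters in replicate 1 and at 64.6% by 1 cluster in replicate 2. That at 371684 to 381773 (10090 bp, score 0.581) was split into 3 clusters in each replicate, and that at 3485630 to 3495593 (9964 bp, score 0.725) into 2 clusters in replicate 1 and 1 in replicate 2. The island at 17860913 to 17870410 was a single cluster in each replicate, covered at 93.5% and 99.2%, with scores of 1.29 and 1.46 and a combined score of 1.37. The exception was 11463904 to 11471789 (7886 bp, score 0.495), covered at 99.7% in replicate 2 and at 0% in replicate 1.

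The highest scores of the combined list went to very narrow clusters. Of its 10 highest-scoring islands, 7 overlapped neither replicate, 2 overlapped 1 replicate and 1 overlapped both. Of all 374 combined islands 37.4% overlapped neither, and over the 5 arms 38.8% of combined clusters did. High-scoring clusters of the other arms were not counted in this way. The 7 were between 1001 bp and 1349 bp wide, with scores between 3.12 and 3.66. Apart from that at 19704905 (1349 bp), they were narrower than 1302 bp, the narrowest island of the replicate lists. The part of this width limit in the lack of overlap was not tested. The 7 stood at 1048619, 5296082, 6407394, 9928798, 11080720, 19704905 and 21367043, and 3 of them shared the score 3.66. Those at 5296082 and 11080720 shared the score 3.24. That at 21367043 lay 1164 bp from the shared island at 21369341. The nearest replicate cluster was between 6268 bp and 139643 bp away from the other 6.

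Islands lay unevenly spaced. Neighbours were a median of 52.5 kb apart in replicate 1 and 42.6 kb in replicate 2, and 22.7 kb in the combined list, whereas in the 2 Mb beyond the window it was 1.85 kb and 1.83 kb in the replicates. Gaps under 10 kb made up 25.3% of replicate 1 (50 of 198) and 24.1% of replicate 2 (51 of 212), and gaps over 100 kb made up 33.8% and 33.0%. Runs of islands less than 10 kb apart held 80 islands (40.2%) in 30 runs in replicate 1 and 83 islands (39.0%) in 32 runs in replicate 2. Of these runs, 22 in each replicate overlapped a run of the other, which is 73.3% in replicate 1 and 68.8% in replicate 2. Runs were not counted on the other arms.

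The longest runs in the replicates were at the same place, 3464744 to 3494051 in replicate 1 and 3464747 to 3495651 in replicate 2. Each held 6 islands, over 29.3 kb and 30.9 kb, with scores between 0.603 and 0.821 in replicate 1 and between 0.509 and 0.861 in replicate 2. A run at 617276 to 631390 held 5 islands in replicate 1 and 4 in replicate 2. A run at 11449938 to 11478501 held 5 islands and 21.3 kb in replicate 2, where replicate 1 had 3 islands and 7.11 kb. In the combined list the largest runs were 11 clusters at 21443968 to 21494582 (50.6 kb) and 10 clusters at 12643296 to 12688362 (45.1 kb). Replicate 1 had 4 and 5 islands in these, and replicate 2 had 5 and 7. The highest score in these 2 runs was 1.16, in replicate 2.

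The longest stretches without a combined cluster were free of replicate clusters, apart from edges. The combined list was deposited for the same replicates and held 98.5% of the island bases of each, so this is no independent agreement. The widest gap of the combined list ran from 4610237 to 5103898 (494 kb). A replicate 1 cluster reached 43 bp into it, and replicate 2 had 0 clusters there. The next was 19994595 to 20394853 (400.3 kb), into which a replicate 1 cluster reached by 16 bp, with 0 of replicate 2. The other 3 of the 5 widest, at 7302344 to 7676425 (374 kb), 2832274 to 3188015 (356 kb) and 10237235 to 10574882 (338 kb), had 0 clusters in both replicates. The widest gaps of the replicates, 779 kb in replicate 1 and 706 kb in replicate 2, held 1 and 2 clusters of the other replicate and 5 and 4 of the combined list.

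The combined list contained nearly all that the replicates marked and added many narrow clusters. It held 98.5% of the island bases of each replicate. Replicate 1 held 47.7% of its bases and replicate 2 held 56.6%. Of its 374 islands, 149 (39.8%) overlapped both replicates, 85 (22.7%) overlapped 1 and 140 (37.4%) overlapped neither. Over the 5 arms 38.8% overlapped neither, so the 3L share was near that of all arms. The share that overlapped both replicates was 35.8% on 2L, 36.6% on 2R, 26.0% on 3R and 43.1% on X. Median width was 2583 bp for islands found in both, 1818 bp for those in 1 replicate and 1368 bp for those in neither. Their median scores were 0.608, 0.403 and 0.413.

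The 140 islands in neither replicate held 22.6% of the combined bases. Of these, 64 (45.7%) were narrower than 1302 bp, the narrowest island of the replicate lists, and 23 lay within 1 kb of a replicate island. The width limits of the lists differ, and the part of this in the count was not tested beyond the following value. Among combined islands of at least 1302 bp, 76 of 307 (24.8%) overlapped neither replicate. Scores of 2 or more occurred in 10 of the 140, with a median width of 1008.5 bp, and in 3 of the 149 found in both, with a median width of 5888 bp.

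The coverage of 3L was then set beside the other large arms, with 200 kb left out at the telomere end and 2 Mb at the centromere end of each. 3L had 2.14% ± 0.259, against 2.93% ± 0.232 on 2L, 3.42% ± 0.311 on 2R, 1.68% ± 0.170 on 3R and 7.90% ± 1.41 on X. Taken within each replicate, 3L minus 2L was -0.79 ± 0.0268 percentage points, 3L minus 2R -1.28 ± 0.0515, 3L minus 3R 0.461 ± 0.0891 and 3L minus X -5.76 ± 1.15. Each difference had the same sign in both replicates and exceeded its own SD. Their size depended on the window and the list: with 3 Mb left out at the centromere end, 3L minus 2L was -0.208 and 3L minus 2R -0.461, and in the combined list 3L minus 3R was 0.0328. An exact two-sided sign-flip permutation test over the 2 replicates gave p = 0.5 for each, the smallest it allows, so this design cannot pass 0.05.

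In island number, 3L had 9.22 ± 0.443 per Mb, against 10.0 ± 0.374 on 2L, 10.8 ± 0.858 on 2R, 7.57 ± 0.523 on 3R and 28.6 ± 3.43 on X. In the combined list the order of 3L and 3R was turned, with 16.7 per Mb on 3L and 18.3 per Mb on 3R. The widest 3L island, 8881 bp in replicate 1 and 9420 bp in replicate 2, was narrower than the widest of 2L (30638 bp and 56607 bp) and of 2R (34000 bp and 47366 bp). 3R was the most like 3L in this respect, at 10446 bp and 8948 bp. All values in this paragraph have 2 Mb left out at the centromere end. With 3 Mb left out, 3L minus 2L in coverage came to -0.208 and 3L minus 2R to -0.461. Number, width, score and gaps of the other arms were not computed again with that limit. The median score was 0.651 ± 0.0137 on 3L, against 0.633 ± 0.0153 on 2L, 0.654 ± 0.0339 on 2R, 0.605 ± 0.0123 on 3R and 0.753 ± 0.00598 on X. Within each replicate, 3L minus X in this score was -0.102 ± 0.0197, 3L minus 3R 0.0459 ± 0.00144 and 3L minus 2L 0.0186 ± 0.00154. Each of these had the same sign in both replicates (exact sign-flip p = 0.5, the smallest possible). Gaps under 10 kb made up 24.7% ± 0.846 on 3L, against 31.3% ± 1.55 on 2L, 37.1% ± 0.163 on 2R, 23.6% ± 2.74 on 3R and 41.7% ± 3.68 on X. In the combined list they made up 37.0% on 3L, against 50.3% on 3R. The sign was not the same in both replicates for 3L minus 3R in the share of these gaps and for 3L minus 2R in median score (exact sign-flip p = 1 for both).

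**Figure D5:**
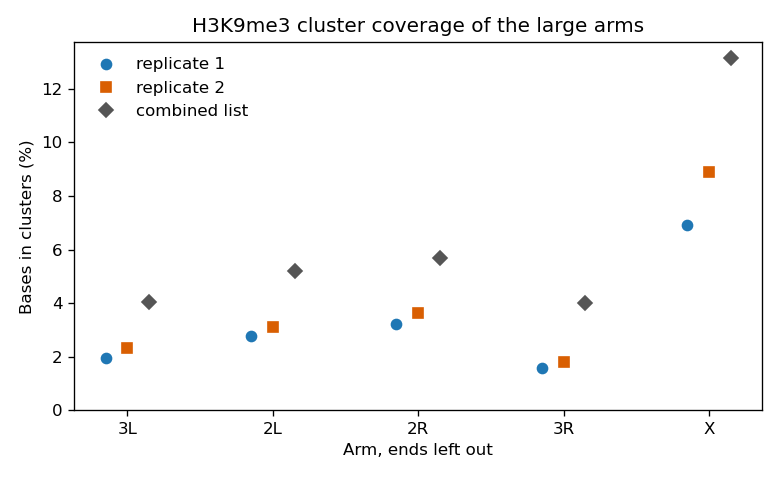
Percent of bases in clusters on 3L and the other large arms, with 200 kb left out at the telomere end and 2 Mb at the centromere end, for each replicate and the combined list. In both replicates 3L lies below 2L, 2R and X and above 3R, and in the combined list 3L (4.04%) and 3R (4.01%) are nearly level.

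Genes and sequences under the islands are not given here. Gene positions at hand were on release 6 and cluster positions on release 5, and the builds were not mixed.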

How the data were processed

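H3K9me3 ChIP was sequenced in 2 libraries, with 2 inputs. The authors deposited 3 lists of enriched clusters with a score per cluster whose scale is not stated in the file headers. The file headers give FlyBase release 5 as the build. Bowtie 0.12.7 is listed in the submitters' processing notes, with no role stated. The caller, its threshold, the handling of repeats and how the combined list was built are not given here. Scores were used to describe and rank clusters within a list and for a correlation across overlapping ones. They were also averaged over the replicates, to rank shared loci and to compare median scores between arms. These means take the scores of both replicate lists as on the same scale, which is not known.

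Groups came from sample titles. Coverage is the summed width of the clusters whose midpoint is in a window over its length. Overlap was 1 bp or more. The 3 regions of depletion in the combined list were left out. Named regions are the 10 widest and the 10 highest-scoring combined islands, the 10 shared loci with the highest mean score, the 5 widest combined gaps and the clusters at the window limits. Other regions named (the longest runs, the extreme bins, the highest score of each replicate, the clusters around the highest-scoring shared locus, the cluster-free stretch at the centromere side) were chosen after their values were seen. The members and lists were chosen with earlier results of these data known. The overlap code recovered the planted overlaps in 20 of 20 simulated pairs of 199 clusters. Python 3.11.15, numpy 2.4.6, pandas 2.3.3, scipy 1.17.1 and matplotlib 3.10.9 were used.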

Additional observations from a re-analysis of the deposited data

Results flagged for a closer look

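The combined list also marks regions of significant depletion, which entered no comparison above. It holds 3, and 2 of them lie in the 3L window, while the replicate lists hold 0. Each of the 2 coincides with a cluster that a replicate list marks as enriched. The region at 2586237 to 2587921 (score -0.00396) shares 1644 bp with an island of replicate 2 at 2586278 to 2587961, whose score of 0.116 is the lowest of that list in the window. The region at 19553568 to 19555308 (score -0.00909) contains an island of replicate 1 at 19553870 to 19555266 with a score of 0.266, and 4 islands of that list score lower. The other replicate has no cluster at either place. They were singled out because they are data outside the comparisons, and the cause was not tested.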

How the results depend on the processing

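Of 83 alternatives over 14 results, 18 left out 1 of 2 replicates, which by construction cannot move a mean by more than 1 SD, and 16 concerned arm differences, whose test cannot pass 0.05. None of the 16 changed sign, but 3L minus 3R came to 0.0328 percentage points in the combined list. With the centromere-side limit at 3 Mb, 3L minus 2L came to -0.208 and 3L minus 2R to -0.461. Of the remaining 49, 24 shifted the result by over 1 SD, out of its exact 95% binomial interval over clusters, or, for the Jaccard index and the Spearman correlation, by more than 0.05. The combined list gave 16.7 islands per Mb, a coverage of 4.04%, a median width of 1911 bp, 37.0% of gaps under 10 kb and 9.72% of island bases in the last 2 Mb (8.95% of the length). The upper 50% of each list by score gave 4.63 per Mb, 1.33%, 2388.25 bp, 17.0% and 7.33%, an overlap of 73% for replicate 1, a Jaccard index of 0.513, a score correlation of 0.743 and 24.1% of combined islands in neither replicate. Islands of at least 2000 bp gave 4.59 per Mb, a coverage of 1.40%, an overlap of 85.4% for replicate 1 and a correlation of 0.693. Joining clusters under 1 kb apart gave 8.46 per Mb and a median width of 2073.5 bp. Overlap of 50% both ways gave 71.4% for replicate 1. A combined width limit of 1302 bp gave 24.8% in neither replicate. A centromere-side limit of 3 Mb put 14.1% of island bases in the last 2 Mb (9.37% of the length), which then include the bin at 19543558 to 20543557. A telomere-side limit of 1 Mb gave 22.6% of gaps under 10 kb. Limits on score or width lower number and coverage by construction. For the other changes the cause was not tested. No paired analysis was possible because the labels' numbers pair each ChIP library with an input, and the inputs have no list. Arms were compared within each ChIP library. Unknown depth limits what the absence of a cluster means.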

Other observations

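Of the 101 loci found in 1 replicate alone, 6 had no cluster in the combined list. They are the 2 enriched islands under depleted regions and the loci at 683181 to 684742 (score 0.678 in replicate 1), 11832954 to 11834512 (score 0.686 in replicate 2), 17952656 to 17954272 (score 0.319 in replicate 2) and 20684054 to 20685358 (score 0.528 in replicate 1). Their scores thus include values above the replicate medians of 0.661 and 0.641.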
